A study of Homo sapiens with 7 samples.

Results

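The comparison described here is 10 d of auxin against no auxin in DLD-1 cells without DNMT3B, measured by Hi-C. DLD-1 is an established human colorectal adenocarcinoma line. The members were chosen by title and treatment label, which gave 2 of the 7 libraries of the study, 1 per group. The first library came from cells labelled DNMT1-AID;DNMT3b -/- after 10 d of auxin, and the second from untreated cells of the line titled 3BKO. Auxin was indole-3-acetic acid at 500 nM, as the labels state it. All libraries of the study come from cells whose DNMT1 carries an auxin-inducible degron, so the untreated library carries the tag too. Loss of DNMT1 and any other effect of auxin cannot be told apart here. The labels do not say how many clones or cultures a library stands for. For comparison, 3 more libraries were read in the same way: the knockout at 4 d of auxin, and the DNMT1-AID line, which keeps DNMT3B, at 10 d of auxin and untreated. The study's question, from its title, was how DNMT1 and DNMT3B act together on DNA methylation and genome organisation.

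DNMT1 copies methylation to the new strand after replication, and DNMT3B sets methylation on DNA that lacks it. In RefSeq's annotation of GRCh38, DNMT1 lies at chr19:10133346-10194953 and DNMT3B at chr20:32762385-32809356. Inherited loss of DNMT3B function in people causes a syndrome in which the satellite DNA beside the centromeres of chromosomes 1, 9 and 16 loses methylation and decondenses. In Hi-C, DNA that lies close together in the nucleus is joined and sequenced, and each joined pair is a contact. Contact falls with the distance between loci along the chromosome, and the steepness of that fall describes how compact the chromatin is at each scale. Contacts between chromosomes, called trans contacts, can come from places where chromosome territories touch or intermingle.

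The values are sums of contacts in 50 kb bins of hg38 over 23 chromosomes (1 to 22 and X), 41 chromosome arms and all pairs of chromosomes, from a separation of 100 kb on. The library at 10 d held 132768865 contacts and the untreated library 101594306. The library at 4 d held 133252390. The DNMT1-AID libraries held 158423127 contacts at 10 d and 114710963 without auxin. With 1 library per group there is no replicate error and no test against it. Arms, chromosomes and pairs of a library are not replicates, and the spread over them is given as a description. Intervals and standard errors named as counting error cover the number of contacts alone. The untreated library is titled 3BKO, whereas its genotype label names DNMT1-AID only. Chromosome 8 took 1.42-fold the share of contact ends in it that it took in the untreated DNMT1-AID library, against 1.43-fold between the genotypes at 10 d and 1.43-fold for the knockout at 4 d over untreated DNMT1-AID. Because of that label, results are also given against the knockout at 4 d, which leaves the untreated library out. The tables hold sums over bins and no value for a single gene, so neither the deletion nor the loss of DNMT1 can be read from them.

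The knockout library at 10 d had a lower share of contacts at short range than the untreated one, a higher share in every longer class of separation, and more between chromosomes. Contacts at 50 Mb or more had the largest fold difference of the separation classes. They made up 2.26% of the contacts within arms at 10 d and 1.31% in untreated cells, which is 1.72-fold (log2 ratio 0.78). Contacts at 10 to 50 Mb made up 14.3% at 10 d and 12.5% in untreated cells (log2 ratio 0.19). Contacts at 1 to 10 Mb made up 25.2% at 10 d and 23.8% in untreated cells (log2 ratio 0.088). Contacts under 1 Mb made up 58.2% at 10 d and 62.4% in untreated cells (log2 ratio -0.10). The 95% exact binomial intervals at 50 Mb or more ran from 2.252% to 2.259% at 10 d and from 1.310% to 1.316% in untreated cells. Counting error was therefore far smaller than any of these differences, whereas the difference between cultures of one group is unknown. Against the knockout at 4 d, the log2 ratios of the 4 classes, in the same order from 50 Mb or more down to under 1 Mb, were 0.51, 0.15, 0.11 and -0.094.

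Balanced contact per bin pair showed where along the distance axis the change lay. Balancing gives each bin the same total, so this value describes the division of a bin's contacts among its partners. Contact at 0.1 Mb was 0.857-fold the untreated value (log2 ratio -0.22), and it was lower in 41 of 41 arms in each of the 9 distance bins up to 0.87 Mb. The ratio crossed 0 at 1.93 Mb. A shallow maximum followed at 4.49 Mb, with a log2 ratio of 0.073 and 37 of 41 arms higher, and the ratio was 0.0038 at 8.92 Mb and -0.00011 at 11.2 Mb. From there it climbed without a further turn, to 0.12 at 28.2 Mb, 0.37 at 44.7 Mb, 0.57 at 56.1 Mb, 0.77 at 70.4 Mb and 0.91 at 87.7 Mb. At 87.7 Mb contact was 1.88-fold the untreated value, with 270308 contacts at 10 d and 109719 in untreated cells, and a counting error of 0.0052 on the log2 scale. All arms long enough to be measured were higher at 56.1 Mb (20 of 20), 70.4 Mb (18 of 18) and 87.7 Mb (14 of 14). These balanced values carry the shift of contact to other chromosomes with them. When contact is divided by the total within arms, each ratio is higher by the same amount and the distance bins from 1.12 to 1.77 Mb turn positive, at 0.010, 0.044 and 0.078.

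**Figure D1:**
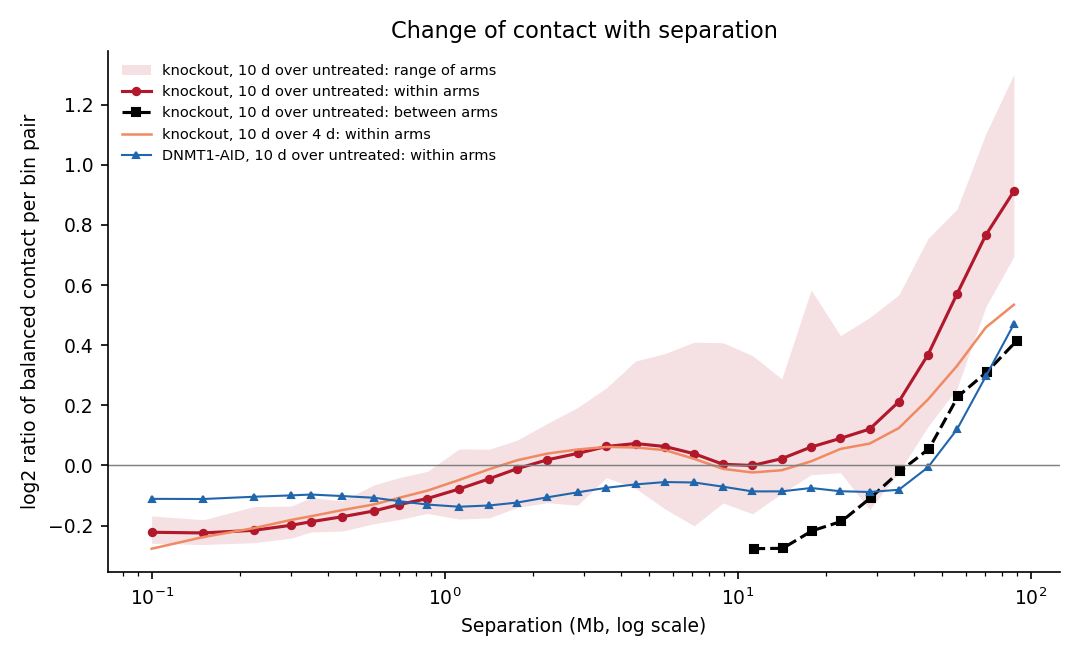
Log2 ratio of balanced contact per bin pair (vertical axis) against separation in Mb (horizontal axis, log scale). Red circles are contacts within arms in the DNMT3B knockout at 10 d over untreated, the shaded band is the range of its arms, black squares are contacts between the arms of a chromosome in the same comparison, the orange line is the knockout at 10 d over 4 d, and blue triangles are DNMT1-AID cells at 10 d over untreated. The red line runs below 0 up to 1.93 Mb, lies near 0 about 11.2 Mb and reaches 0.91 at 87.7 Mb, while the black line starts at -0.28 and ends at 0.41.

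In absolute terms, a pair of 50 kb bins on one arm 56.1 Mb apart had 48.9 units of balanced contact at 10 d and 32.9 units in untreated cells, in units of 1e-06 of a bin's total, a gain of 15.96 units. The gain was 6.74 units at 22.5 Mb, 15.1 units at 70.4 Mb and 13.1 units at 87.7 Mb. For a pair of bins on different chromosomes the values were 5.73 units at 10 d and 4.97 units in untreated cells, a gain of 0.763 units. In these units the gain between distant bins of one arm was thus larger than that between chromosomes at each separation from 22.5 to 87.7 Mb. As log2 ratios the order differed, with 0.206 between chromosomes against 0.090 within arms at 22.5 Mb and 0.12 at 28.2 Mb. The ratio within arms was the larger from 35.5 Mb on, where it was 0.212.

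The slope of the decay was shallower at 10 d on both scales measured. The decay exponent, the slope of log10 balanced contact on log10 separation, was -1.41 at 10 d and -1.49 in untreated cells between 0.5 and 5 Mb. The difference was 0.081 over all arms, and each of the 41 arms had a shallower slope, with a spread over arms of 0.026 (SD). Between 5 and 50 Mb it was -0.739 at 10 d and -0.828 in untreated cells, a difference of 0.089. It was higher in 20 of the 21 arms of 60 Mb or more. Xq was the exception, with -0.962 at 10 d and -0.821 in untreated cells. Against the knockout at 4 d the differences were 0.070 for the shorter range and 0.054 for the longer one.

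Arm by arm, the sizes of the differences varied. Contacts under 1 Mb had a lower share in 41 of 41 arms, with a median log2 ratio of -0.086 and an SD over arms of 0.031. The lowest were Xq (-0.20), 4q (-0.14), 3p (-0.13) and 2q (-0.12). The highest were 19p (-0.035), 19q (-0.047), 22q (-0.048) and 20p (-0.050). On 19p, the gene-dense short arm at chr19:1-25850000, contacts under 1 Mb made up 72.2% at 10 d and 73.9% in untreated cells. On 4q, at chr4:50750001-190250000, they made up 51.6% at 10 d and 56.8% in untreated cells. The share was thus lower by more on long arms than on short ones, with a Spearman correlation of -0.87 between the log2 ratio and arm length (n = 41 arms). The same ratio had a correlation of 0.52 with the density of protein-coding genes (n = 41). Its correlation was 0.69 with the share of an arm's bins in the A1 and A2 clusters that the authors had called in untreated DNMT1-AID cells (n = 38 arms with cluster calls). Length, gene density and cluster share vary together over the arms, so these correlations do not separate them. The shares of an arm also add up to a fixed total, and short arms hold no contacts at the longest separations. The change in the share under 1 Mb therefore depends partly on arm length itself. Balanced contact per bin pair had log2 ratios of -0.21 on 19p and -0.22 on 4q at 0.1 Mb. At 0.45 Mb it had -0.12 on 19p and -0.22 on 4q. A relation of balanced contact to arm length was not tested.

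The share at 1 to 10 Mb was higher in 41 of 41 arms, with a median log2 ratio of 0.10. Xq (0.23), 18p (0.20), 20q (0.16) and 17p (0.15) lay highest and 5q (0.049), 4q (0.050), 6q (0.060) and 3q (0.062) lowest. The share at 10 to 50 Mb was also higher in 41 of 41 arms, with a median of 0.20. The highest was 7p, at chr7:1-59850000, with 12.1% at 10 d and 9.39% in untreated cells (log2 ratio 0.37). 19q (0.28), 3p (0.27) and 6p (0.27) followed. The lowest was 19p, with 3.22% at 10 d and 3.14% in untreated cells (0.037), then 20q (0.092), 21q (0.10) and 2q (0.13). The arms of chromosome 19 lay at opposite ends of this class: 19q had 6.51% at 10 d and 5.36% in untreated cells. A short arm such as 19p fills only the lower part of this class, so the class is not the same measure on every arm. By separation, balanced contact on 19p had -0.15 at 11.2 Mb, 0.065 at 14.1 Mb and 0.58 at 17.6 Mb.

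At 50 Mb or more the share was higher in 20 of 20 arms, with a median log2 ratio of 0.75 and an SD over arms of 0.12. The highest was 3p, at chr3:1-92200000, where the share was 2.65% at 10 d and 1.31% in untreated cells (log2 ratio 1.02). 4q (0.87), 2p (0.87) and 3q (0.85) came next. On 4q the share was 5.49% at 10 d and 3.002% in untreated cells. The lowest were Xq (0.41), 10q (0.62), 12q (0.67) and 13q (0.68). The log2 ratio had a Spearman correlation of 0.55 with an arm's share of bins in the B2/B3 cluster and -0.52 with its share in the A clusters (n = 18 arms), and of 0.24 with arm length (n = 20). Against the knockout at 4 d, all 20 arms were again higher, with a range from 0.37 to 0.66.

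**Figure D2:**
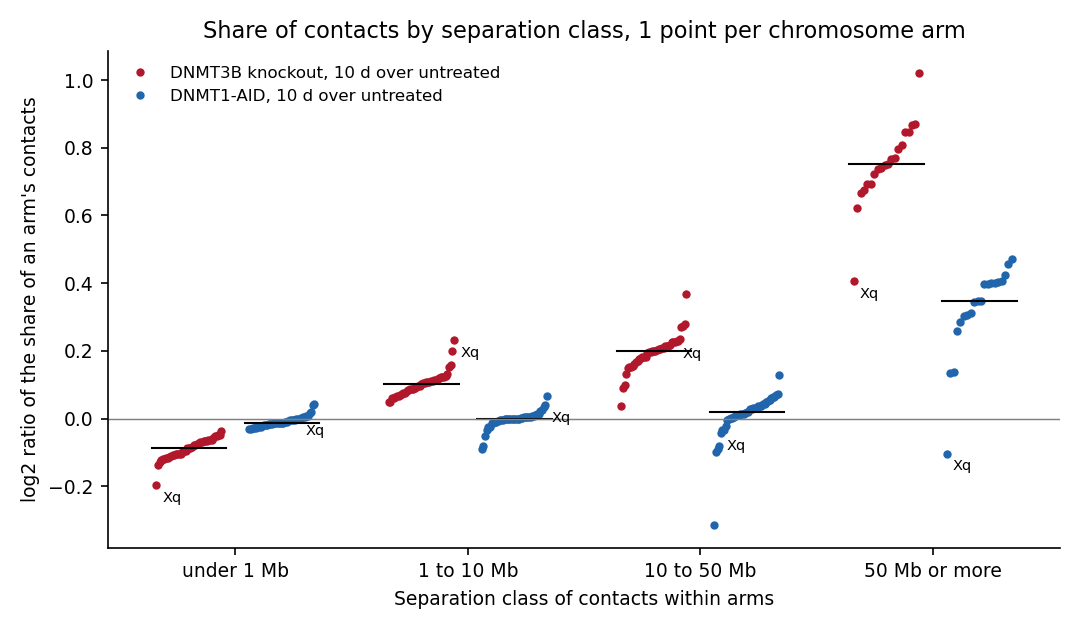
Log2 ratio of the share of an arm's contacts in each separation class (horizontal axis), 1 point per chromosome arm, with red for the DNMT3B knockout and blue for DNMT1-AID cells, each at 10 d over untreated, and a black line at the median of the arms. The red points lie on one side of 0 in every class, with medians of -0.086, 0.10, 0.20 and 0.75, and the labelled arm Xq lies at an end in 3 of the 4 classes in the knockout.

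The long arm of X, at chrX:60500001-156050000, did not follow the shape of the other arms. Contacts under 1 Mb made up 50.9% on Xq at 10 d and 58.3% in untreated cells, the lowest log2 ratio of the 41 arms. Contacts at 1 to 10 Mb made up 29.4% at 10 d and 25.0% in untreated cells, the highest log2 ratio of the 41. By separation, balanced contact on Xq exceeded the untreated value from 1.42 Mb on and reached a log2 ratio of 0.41 at 7.11 Mb. At that separation the other 40 arms ranged from -0.20 (16p) to 0.18 (18p), with a median of 0.019. Farther out the ratio of Xq fell back to 0.0051 at 28.3 Mb and -0.022 at 35.5 Mb. At 35.5 Mb the other 30 arms measured ranged from 0.073 (18q) to 0.57 (16q). It stood at 0.53 at 70.1 Mb. The short arm Xp did not share this shape: its share under 1 Mb was 60.7% at 10 d and 63.9% in untreated cells, and its exponent between 5 and 50 Mb was -0.812 at 10 d and -1.02 in untreated cells. Xq was also above its untreated value in the knockout at 4 d, a comparison that shares the untreated library, with 0.19 at 7.11 Mb. In that comparison Xq had 0.20 at 4.49 Mb and 0.21 at 8.93 Mb, so no peak lay at 7.11 Mb. At 10 d over 4 d Xq had 0.22 at 7.11 Mb. In DNMT1-AID cells at 10 d, where the median arm had -0.056, Xq had 0.019 at that separation, while the other 40 arms ranged from -0.34 (19q) to 0.0072 (18p). In DNMT1-AID cells Xq was below its untreated value at 1.12 Mb (-0.12), as were the other 40 arms (median -0.14). At 44.7 Mb Xq had -0.28 in DNMT1-AID cells but 0.13 in the knockout. Xq stood above the other arms at 7.11 Mb in both genotypes, though narrowly in DNMT1-AID cells. In DNMT1-AID cells at 5.66 Mb, Xq had 0.0023 and 18p had 0.039. The shares are relative to all contacts within the arm, whereas the values by separation are ratios of balanced contact per bin pair. All come from 1 cell line, and no test of the difference of Xq from the autosomes was possible.

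19p also departed from the common curve. Its log2 ratio was -0.18 at 1.12 Mb, the lowest of the arms there, 0.25 at 5.65 Mb, -0.15 at 11.2 Mb and 0.58 at 17.6 Mb. This arm is short, so each of the last distance bins rests on a small part of it. In DNMT1-AID cells at 10 d 19p had -0.25, 0.035, -0.60 and -0.060 at these separations.

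Contact between the arms of a chromosome was compared with contact within arms at the same separation, from 20 to 50 Mb, on the 18 chromosomes with enough bin pairs of both kinds. The inter-arm ratio was 0.706 at 10 d and 0.846 in untreated cells (log2 ratio -0.26). Contact within arms was higher by a log2 ratio of 0.22, whereas contact between arms differed by -0.037. When contact was divided by the total within arms these values were 0.31 and 0.051, so the sign of the difference between arms depends on the scale, whereas the ratio does not. The ratio was lower on 17 of 18 chromosomes, with a median of -0.29 and an SD over chromosomes of 0.22. The counting error of the inter-arm contacts was between 0.0057 and 0.015 on the log2 scale for each chromosome.

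The 3 lowest chromosomes were 16, 1 and 9, which carry the large blocks of satellite DNA named above. On chromosome 16 the ratio was 0.890 at 10 d and 1.54 in untreated cells (log2 ratio -0.79). On chromosome 1 it was 0.832 at 10 d and 1.32 in untreated cells (-0.66). On chromosome 9 it was 0.748 at 10 d and 1.08 in untreated cells (-0.53). A ratio above 1 means that loci on opposite arms met more often than loci on one arm at the same separation. This held for 6 of 18 chromosomes in untreated cells, for 3 of 18 at 4 d and for 0 of 18 at 10 d. Next were chromosome 19, with 0.567 at 10 d and 0.782 in untreated cells (-0.47), and chromosome 2, with 0.710 at 10 d and 0.929 in untreated cells (-0.39). Chromosome 20 was the exception, with 0.757 at 10 d and 0.743 in untreated cells (0.027), and X had 0.664 at 10 d and 0.669 in untreated cells (-0.011).

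Over chromosomes 1, 9 and 16 together the ratio was 0.838 at 10 d and 1.35 in untreated cells (log2 ratio -0.69), made up of lower contact between arms (-0.28) and higher contact within arms (0.41). Over the other 15 chromosomes it was 0.699 at 10 d and 0.820 in untreated cells (-0.23), with -0.018 between arms and 0.21 within arms. Divided by the total within arms, contact between arms had -0.19 on chromosomes 1, 9 and 16 and 0.070 on the other 15. Chromosome 1 had 19446 inter-arm contacts in this range at 10 d and 18029 in untreated cells, and chromosome 9 had 21714 at 10 d and 19276 in untreated cells. Chromosome 16 had 55602 at 10 d and 47685 in untreated cells. The knockout at 4 d lay between the untreated and the 10 d library on 14 of 18 chromosomes, with 1.07 on chromosome 1, 0.925 on chromosome 9 and 1.26 on chromosome 16. Against the knockout at 4 d, chromosomes 16 (-0.50), 1 (-0.36) and 9 (-0.31) were again the 3 lowest. At 4 d over untreated, the lowest was chromosome 19 (-0.40), followed by 1 (-0.30), 16 (-0.29) and 9 (-0.22).

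**Figure D3:**
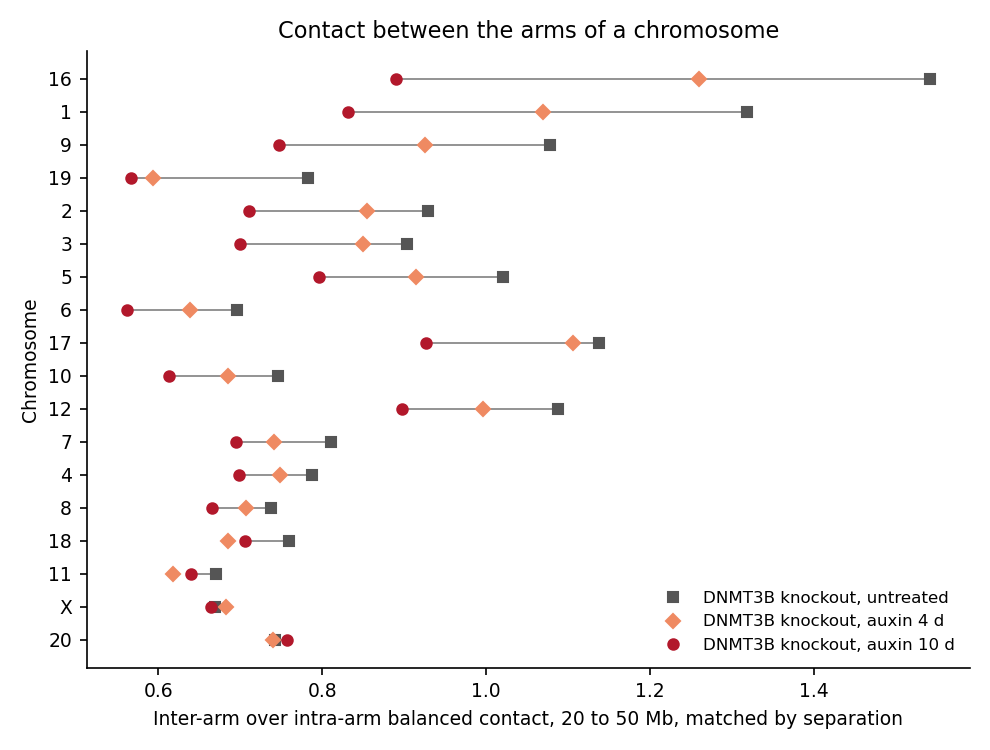
Ratio of inter-arm to intra-arm balanced contact at matched separations of 20 to 50 Mb (horizontal axis) for 18 chromosomes (vertical axis, ordered by the change), with grey squares for untreated DNMT3B knockout cells, orange diamonds for 4 d of auxin and red circles for 10 d. Lines join the 10 d and untreated values, which lie farthest apart on chromosome 16 (0.890 and 1.54), chromosome 1 (0.832 and 1.32) and chromosome 9 (0.748 and 1.08).

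Contact between arms changed with distance. Over the 18 chromosomes together, inter-arm contact per bin pair had a log2 ratio of -0.28 at 11.3 Mb, -0.22 at 17.97 Mb, -0.11 at 28.4 Mb and 0.056 at 45.0 Mb. It then had 0.23 at 56.6 Mb, 0.31 at 71.1 Mb and 0.41 at 89.6 Mb. Contact within arms of the same chromosomes had 0.0019 at 11.2 Mb, 0.12 at 28.2 Mb and 0.92 at 87.8 Mb. Loci close to the centromere on opposite arms thus met less often at 10 d, while loci far apart met more often whether or not a centromere lay between them. At each of the 10 separations from 11.3 to 89.6 Mb the ratio between arms was below that within arms.

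Contacts between chromosomes made up 29.2% of all contacts at 10 d and 25.2% in untreated cells, with 95% exact binomial intervals from 29.212% to 29.227% at 10 d and from 25.157% to 25.173% in untreated cells. The share was 1.16-fold that of untreated cells (log2 ratio 0.22). The knockout at 4 d had 24.4%, below the untreated library, and its share was lower on 22 of 23 chromosomes. At 4 d the trans share thus lay on the other side of the untreated value from 10 d. So did the share at 1 to 10 Mb, with 23.4% at 4 d, 23.8% untreated and 25.2% at 10 d. Balanced contact at 0.1 Mb did so too, with a log2 ratio of 0.055 at 4 d over untreated and 41 of 41 arms higher. For the inter-arm ratio and the shares under 1 Mb, at 10 to 50 Mb and at 50 Mb or more, the 4 d value lay between untreated and 10 d. With 1 library per time point, a course over time was not tested. When contacts within chromosomes were counted from 1 Mb on, the log2 ratio was 0.077.

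For each chromosome, the share of its contact ends that lay in trans contacts was higher at 10 d on 23 of 23 chromosomes, with a median log2 ratio of 0.21 (SD over chromosomes 0.033). Chromosome 18, which is gene-poor, had the largest log2 ratio (0.27), with 32.7% at 10 d and 27.1% in untreated cells. Chromosome 21 had 41.2% at 10 d and 34.7% in untreated cells (0.25), and chromosomes 6 and 5 each had a log2 ratio of 0.25. The lowest were chromosomes 22 (0.14), 17 (0.16), 14 (0.17) and 9 (0.18). Chromosome 22 had 45.1% at 10 d and 41.0% in untreated cells, the highest share in both libraries. Chromosome 19 had 39.8% at 10 d and 34.5% in untreated cells (0.20), chromosome 1 had 28.0% at 10 d and 24.2% in untreated cells (0.21), and chromosome 16 had 37.8% at 10 d and 33.1% in untreated cells (0.19). Across the chromosomes the log2 ratio had a Spearman correlation of -0.53 with the density of protein-coding genes (n = 23).

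**Figure D4:**
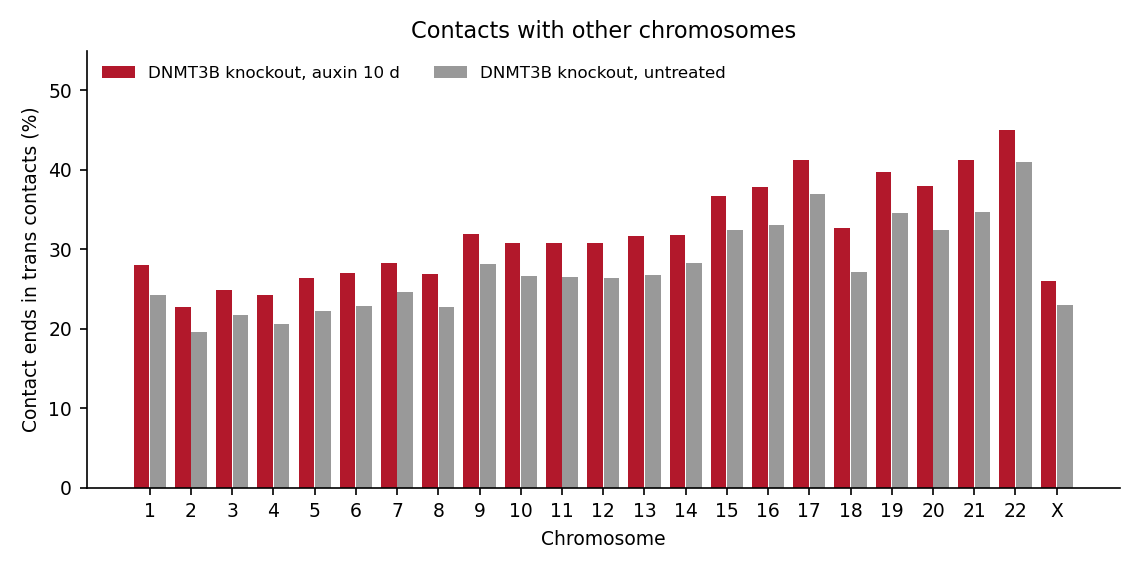
Percent of each chromosome's contact ends that lie in contacts with other chromosomes (vertical axis, from 0) in the DNMT3B knockout, with red bars for 10 d of auxin and grey bars for untreated cells. The red bar is higher on all 23 chromosomes, from chromosome 2 (22.7% at 10 d, 19.6% untreated) to chromosome 22 (45.1% at 10 d, 41.0% untreated).

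Relative to the median chromosome pair, whose balanced contact was 1.15-fold at 10 d (log2 ratio 0.21), few pairs stood apart. Of all pairs, 2 were more than 1.1-fold higher than the median pair (0.791%) and 2 more than 1.1-fold lower (0.791%). Chromosomes 19 with 21, both small, had 13.7 units of 1e-06 at 10 d and 10.5 units in untreated cells, 0.18 above the median pair with a counting error of 0.012. Chromosomes 19 with 20 had 16.5 units at 10 d and 12.9 units in untreated cells (0.15 above). Chromosomes 17 with 22 had 16.4 units at 10 d and 16.2 units in untreated cells, 0.19 below the median pair, and 9 with 22 had 9.02 units at 10 d and 8.79 units in untreated cells, 0.17 below. Next in line were 15 with 21 (0.14), 13 with 21 (0.12), 9 with 17 (-0.13) and 3 with 22 (-0.12). The 3 lowest pairs are thus the 3 pairs among chromosomes 9, 17 and 22. With raw counts divided by the product of the chromosomes' trans totals, which takes out a change common to all pairs of a chromosome, no pair passed 1.1-fold. On that scale the 4 pairs that had passed lay at 0.063, 0.060, -0.090 and -0.063, and 15 with 21 was the highest, at 0.12. Against the knockout at 4 d no pair passed 1.1-fold either: 19 with 21 had -0.011, 19 with 20 had 0.089, 17 with 22 had -0.12 and 9 with 22 had -0.13.

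Averaged over its 22 pairs, chromosome 21 had a mean log2 difference of 0.055 from the median pair, chromosome 19 of 0.054, chromosome 18 of 0.047 and chromosome 13 of 0.038. Chromosomes 22 (-0.047), 14 (-0.046), 9 (-0.046) and 17 (-0.037) lay lowest. The short chromosomes 19 and 22, both gene-dense, therefore lay at opposite ends. Among chromosomes 13, 14, 15, 21 and 22, which carry ribosomal RNA genes on their short arms, 21 and 13 lay at the upper end and 22 and 14 at the lower. The 10 pairs among them had a median of -0.0031, with 4 of 10 above the median pair. The 10 pairs among chromosomes 4, 5, 13, 18 and X had a median of 0.062, with 9 of 10 above. Of these 5, chromosomes 13, 18 and 4 have the lowest densities of protein-coding genes of all chromosomes, while X has 5.43 coding genes per Mb, more than chromosome 8 with 4.93. With raw counts over trans totals the median of this list was 0.0075, with 5 of 10 above, and that of the list with ribosomal RNA genes was 0.017. The 10 pairs among the gene-rich short chromosomes 16, 17, 19, 20 and 22 had a median of 0.044, with 7 of 10 above and an SD of 0.096.

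**Figure D5:**
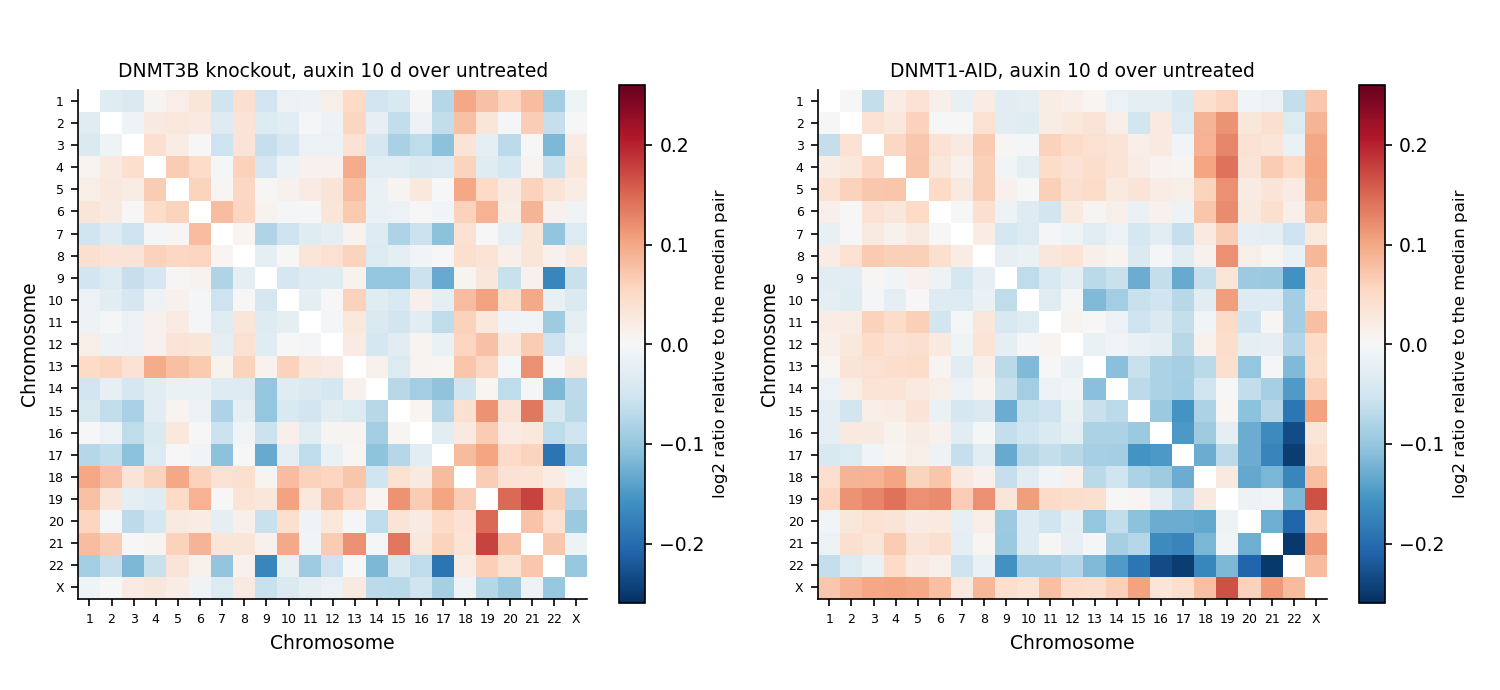
Log2 ratio of balanced contact at 10 d over untreated for each pair of chromosomes, relative to the median pair (colour, blue lower and red higher), in the DNMT3B knockout (left) and in DNMT1-AID cells (right). In the knockout the values run from -0.19 (17 with 22) to 0.18 (19 with 21), while in DNMT1-AID cells the pairs of short chromosomes at the lower right are mostly blue.

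The share of all contact ends that a chromosome took differed little between the libraries. It was between 0.981-fold (chromosome 4) and 1.07-fold (chromosome 19) at 10 d over untreated, with 1.06-fold on chromosome 22, 1.04-fold on chromosome 17 and 1.03-fold on chromosome 16. It was 1.01-fold on chromosome 8. The ratio had a Spearman correlation of 0.63 with gene density and of 0.91 with the same ratio in DNMT1-AID cells (n = 23 each). Chromosome 19 at 10 d over 4 d had 1.16-fold. The part of this difference in coverage in the changes of pairs and arms of the gene-dense chromosomes was not tested.

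DNMT1-AID cells, which keep DNMT3B, were given auxin for the same 10 d. Their libraries share no sample with those of the knockout. Since each effect comes from 1 library against 1, the difference between the effects was not tested. The starting libraries differed as well, with 25.2% trans contacts in the untreated knockout and 21.4% in untreated DNMT1-AID cells. At 10 d DNMT1-AID cells had 26.2% (log2 ratio 0.30), a larger difference than in the knockout by 0.080 on the log2 scale. The separation classes differed the other way. Contacts at 50 Mb or more made up 1.58% at 10 d and 1.25% untreated in DNMT1-AID cells (log2 ratio 0.34), which was 0.44 less than in the knockout. Contacts at 10 to 50 Mb had a log2 ratio of 0.025 in DNMT1-AID cells, contacts at 1 to 10 Mb -0.0026 and contacts under 1 Mb -0.014. In DNMT1-AID cells balanced contact was below the untreated value at each separation up to 44.7 Mb and crossed 0 at 45.2 Mb, to reach 0.47 at 87.7 Mb. Divided by the total within arms, contact crossed 0 at 2.82 Mb in DNMT1-AID cells and at 1.04 Mb in the knockout, and in DNMT1-AID cells it stayed positive beyond, with 0.0018 at 28.2 Mb and 0.084 at 44.7 Mb. The decay exponent between 0.5 and 5 Mb differed by 0.019 in DNMT1-AID cells, with 36 of 41 arms higher, and that between 5 and 50 Mb by 0.0042.

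The order of the arms was partly shared between the genotypes. The log2 ratio under 1 Mb had a Spearman correlation of 0.67 over 41 arms between the knockout and DNMT1-AID cells. The value was 0.50 for 1 to 10 Mb and 0.30 for 10 to 50 Mb (n = 41 each), and 0.51 for 50 Mb or more (n = 20). Xq had -0.10 at 50 Mb or more in DNMT1-AID cells, the only arm of 20 that was lower there. The inter-arm ratio differed by less in DNMT1-AID cells, with 0.787 at 10 d and 0.845 untreated (log2 ratio -0.10), and the chromosomes kept a similar order, with a Spearman correlation of 0.90 (n = 18). The lowest there were chromosomes 19 (-0.61), 16 (-0.43) and 1 (-0.40), and chromosome 9 had -0.14. The composition differed: in DNMT1-AID cells contact between arms had a log2 ratio of -0.16 and contact within arms of -0.059, which turned to 0.031 when divided by the total within arms. On chromosomes 1, 9 and 16 together contact between arms was lower by similar amounts, with -0.28 in the knockout and -0.29 in DNMT1-AID cells. Contact within the arms of these 3 chromosomes had 0.41 in the knockout and 0.062 in DNMT1-AID cells.

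Among chromosome pairs in DNMT1-AID cells, 2 (0.791% of all pairs) were more than 1.1-fold above the median pair and 12 (4.74%) more than 1.1-fold below. The 45 pairs of the 10 shorter chromosomes had a median of 0.024 in the knockout, with 30 of 45 above the median pair, and of -0.097 in DNMT1-AID cells, with 4 of 45 above. The gene-rich list had 0.044 in the knockout and -0.13 in DNMT1-AID cells, where 0 of 10 pairs lay above. The list of chromosomes with ribosomal RNA genes had -0.0031 in the knockout and -0.097 in DNMT1-AID cells. For the pairs among chromosomes 4, 5, 13, 18 and X the values were 0.062 in the knockout and 0.065 in DNMT1-AID cells. The slope of a pair's change on its untreated contact was 0.0014 per unit of log2 contact in the knockout and -0.11 in DNMT1-AID cells (all pairs). Untreated contact is also the denominator of the change, so noise in it alone would lower the slope. The difference between the slopes was not tested. X also differed: the mean over its 22 pairs was -0.029 in the knockout and 0.075 in DNMT1-AID cells, where 22 of 22 lay above the median pair.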

How the data were processed

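The libraries were made with an Arima kit and sequenced paired-end, per the labels' protocols, and the submitters' processing notes name hg38 and BWA. How pairs were filtered and matrices balanced is not given. The deposited tables give, per separation in 50 kb steps and per arm, chromosome or chromosome pair, a whole-number count of contacts, the number of valid bin pairs and, per the file headers, the summed balanced signal. The counts also include contacts of bins that balancing masked. The cluster names of 50 kb bins are another deposited measure, made by the authors from untreated DNMT1-AID cells.

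Shares come from raw counts, with exact (Clopper-Pearson) 95% intervals that cover counting error only. Contact per bin pair comes from the balanced signal, in 30 log-spaced bins from 0.1 to 100 Mb. Exponents are least-squares slopes over 20 bins. The inter-arm ratio weights each separation of 20 to 50 Mb alike within and between arms. It needs at least 10000 bin pairs within arms and 10000 between arms. Arms needed 1000 contacts under 1 Mb in each library. All values are log2 ratios or differences of 1 library against 1, so there are no p-values. The scripts (Python 3.11.15, numpy 2.4.6, pandas 2.3.3) recovered known exponents and ratios from simulated libraries. Named arms, chromosomes and pairs are the 4 highest and 4 lowest of a measure, chromosomes 1, 9, 16, 19, 21 and 22, and exceptions to a shared direction. The members, lists and measures were chosen with earlier results of these data known. Other scalings, ranges and sets of chromosomes were tried, and the comparison with 4 d was added after the label of the untreated library was seen to conflict with its title.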

Additional observations from a re-analysis of the deposited data

Results flagged for a closer look

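For 8 values the knockout and the DNMT1-AID cells had opposite signs after 10 d of auxin on the scale reported. For 3 of them the opposite signs depend on the scale or on the contacts counted. With 1 library per group, none of these differences was tested. Values are log2 ratios of 10 d over untreated.

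The share of contacts at 1 to 10 Mb had 0.088 in the knockout and -0.0026 in DNMT1-AID cells, a difference of 0.090. The DNMT1-AID value lay near 0: with balanced sums it was -0.00026, and by arm 18 of 41 were higher and 23 lower. Mean balanced contact at 1 to 10 Mb had 0.017 in the knockout and -0.091 in DNMT1-AID cells, a difference of 0.11. At 10 to 50 Mb it had 0.13 in the knockout and -0.073 in DNMT1-AID cells, a difference of 0.20. Contact within arms at the separations of the inter-arm ratio, 20 to 50 Mb, had 0.22 in the knockout and -0.059 in DNMT1-AID cells, a difference of 0.28. Balanced contact carries the shift of contact to other chromosomes. With raw counts scaled to the contacts within arms, the value at 10 to 50 Mb was 0.21 in the knockout and 0.023 in DNMT1-AID cells, and that at 1 to 10 Mb was 0.099 in the knockout and -0.0028 in DNMT1-AID cells. With balanced contact divided by its total within arms, a scale added after seeing the data, the value at 20 to 50 Mb was 0.31 in the knockout and 0.031 in DNMT1-AID cells.

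Among chromosome pairs, given relative to the median pair, the mean of the 45 pairs of short chromosomes was 0.018 in the knockout and -0.10 in DNMT1-AID cells, a difference of 0.12. The mean of the 10 gene-rich pairs was 0.020 in the knockout and -0.13 in DNMT1-AID cells, a difference of 0.15. The mean of the 10 pairs among chromosomes 13, 14, 15, 21 and 22 was 0.0064 in the knockout and -0.11 in DNMT1-AID cells, a difference of 0.12. Their median in the knockout was -0.0031, so the direction of this list in the knockout depends on the summary used. With raw counts over trans totals the means of these 3 lists kept opposite signs, with 0.0087, 0.032 and 0.023 in the knockout and -0.046, -0.065 and -0.028 in DNMT1-AID cells. The share of contact ends on chromosome 8 had 0.0098 in the knockout and -0.0070 in DNMT1-AID cells, a difference of 0.017. With trans contacts alone it was 0.031 in the knockout and 0.014 in DNMT1-AID cells.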

How the results depend on the processing

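Values are log2 ratios (for exponents, differences) of the knockout at 10 d over untreated. Of 96 alternatives, 78 were scored as moved. The limit was the 95% counting interval, which is narrow at this depth, or 1.5-fold for counts of pairs. Of the 88 that do not count pairs, 87 kept the sign and 16 moved the value by over 1.5 times. Unless the construction below shows it, the cause was not tested.

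Leaving out the untreated library, whose labels conflict, and setting 10 d against 4 d gave 0.26 for the trans share. The shares under 1 Mb, at 1 to 10 Mb, at 10 to 50 Mb and at 50 Mb or more then had -0.094, 0.11, 0.15 and 0.51. Mean balanced contact had -0.17 at 0.1 to 1 Mb, 0.023 at 1 to 10 Mb, 0.064 at 10 to 50 Mb and 0.44 at 50 to 100 Mb, against -0.18, 0.017, 0.13 and 0.75 over the untreated library. The exponents differed by 0.070 and 0.054, the inter-arm ratio had -0.14, and 0 pairs were called higher and 0 lower. The coverage of chromosome 8 had 0.00061 and that of chromosome 19 had 0.21, against 0.0098 and 0.10.

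Balanced sums gave 0.21 for the trans share and -0.10, 0.093 and 0.19 for the shares under 1 Mb, at 1 to 10 Mb and at 10 to 50 Mb. Counting contacts within chromosomes from 1 Mb on, which drops most of them, gave a trans share of 0.077. Counting contacts from 200 kb on gave -0.12, 0.055, 0.16 and 0.75 for the 4 shares in order of distance. Without chromosome 8 the trans share had 0.22, the share at 1 to 10 Mb 0.089 and that at 50 Mb or more 0.78. The last had 0.79 without chromosome X, an alternative added after seeing the data.

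Raw counts scaled to the contacts within arms, which takes out the trans share, gave -0.088 at 0.1 to 1 Mb, 0.10 at 1 to 10 Mb, 0.21 at 10 to 50 Mb and 0.84 at 50 to 100 Mb. The median of arms gave -0.18, 0.0083 and 0.13 in the 3 shorter ranges, and exponents of 0.074 and 0.093. Raw counts gave exponents of 0.078 and 0.093. The inter-arm ratio had -0.26 with raw counts and at 10 to 40 Mb, -0.22 pooled over the range, and -0.29 as the median of chromosomes. Without chromosomes 1, 9 and 16, added after seeing the data, it had -0.23. Raw counts over trans totals called 0 pairs higher and 0 lower, and a limit of 5% called 23 higher and 24 lower. With trans contacts alone, the coverage of chromosome 8 had 0.031 and that of chromosome 19 had 0.090.

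The knockout effect minus the DNMT1-AID effect moved as follows. For the trans share it was -0.081 with balanced sums, -0.081 without chromosome 8 and -0.14 with contacts from 1 Mb on, against -0.080. Balanced sums gave -0.091, 0.093, 0.17 and 0.46 for the 4 shares, and contacts from 200 kb on gave -0.10, 0.062, 0.14 and 0.41. The share at 10 to 50 Mb had 0.16 on arms of at least 50 Mb, and the share at 50 Mb or more 0.43 without chromosome 8. For contact by separation, raw counts scaled within arms gave -0.068, 0.10, 0.19 and 0.44, and the median of arms gave -0.066 at 0.1 to 1 Mb, 0.10 at 1 to 10 Mb and 0.45 at 50 to 100 Mb. The exponent between 0.5 and 5 Mb had 0.058 with raw counts and with the median of arms. The inter-arm ratio had -0.14 with raw counts, -0.12 pooled, -0.18 as the median of chromosomes and -0.14 without chromosomes 1, 9 and 16. The coverage of chromosome 19 had -0.015 with trans contacts alone, against 0.0013, the 1 sign that differed. Differences of counts of pairs were not run.

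Depth does not limit the shares of whole libraries, but it limits contact near the ends of short arms. Inter-arm contact on chromosomes 1 and 9 had the largest counting errors of the 18 chromosomes, 0.015 and 0.014 on the log2 scale. These chromosomes also had the fewest valid bin pairs between arms, 85323 and 78148 at 10 d in the knockout. No paired analysis was possible because each group held 1 library.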

Other observations

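Xp and Xq stood at opposite ends of the change in the decay exponent between 5 and 50 Mb. Xp had the highest difference of the 21 arms measured, with -0.812 at 10 d and -1.02 in untreated cells, and Xq the lowest, with -0.962 at 10 d and -0.821 in untreated cells. In DNMT1-AID cells the same arms were also at the ends, with differences of 0.072 for Xp and -0.11 for Xq.

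On 3p, the log2 ratio of contact increased with distance beyond 11.2 Mb, with 0.16 at 22.5 Mb, 0.42 at 35.5 Mb, 0.85 at 56.1 Mb, 1.102 at 69.9 Mb and 1.30 at 83.0 Mb. In DNMT1-AID cells the values of 3p at these separations were -0.13, -0.035, 0.29, 0.47 and 0.61. On 7p the knockout had 0.49 at 28.2 Mb, 0.26 at 35.4 Mb and 0.50 at 44.1 Mb. In DNMT1-AID cells 7p had -0.046, 0.0055 and 0.11 at these separations.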
